A study of Mus musculus with 7 samples.

Results

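Ubiquitin conjugating enzymes and ligases were taken from the listed sites of HuR on RNA. The cells were CT26.WT, a line from a mouse colon carcinoma. The members are the genes with a listed HuR site whose names begin with the stems of the families Uba, Ube2 to Ube4, Ubr, Rnf, Trim, Fbxl, Fbxo, Fbxw, Herc, Hectd, Cul and Klhl, or are Huwe1, Nedd4, Nedd4l, Itch, Smurf1 or Smurf2, with a few names left out by the rule. Only the name decided membership, and no measured value was used beyond the presence of a site. There were 150 members among 6277 genes with a site, and they held 451 sites.

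Ubiquitin is passed along a chain of enzymes. An activating enzyme (E1) charges it, a conjugating enzyme (E2) carries it, and a ligase (E3) chooses the protein that receives it. HECT ligases take ubiquitin onto themselves before handing it on, while RING ligases bring a charged E2 to the substrate. Cullins are scaffolds of large RING ligases, in which F-box proteins (with Cul1) and Klhl proteins (with Cul3) bind the substrate. HuR, encoded by Elavl1, belongs to the ELAV family of RNA-binding proteins. It binds U-rich and AU-rich stretches, many of them in introns and in untranslated regions, and is best known for stabilising the mRNAs it holds.

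The study immunoprecipitated HuR with an antibody against the endogenous protein and sequenced the RNA that came with it (RNA immunoprecipitation sequencing, RIP-seq), in a project on triglyceride synthesis and fat absorption. The samples were 3 pull-downs with anti-HuR, 3 with IgG as control and 1 total RNA input that was divided in 3, all from wild-type cells with no other treatment. The values are the authors' site calls in the HuR immunoprecipitations, here lists 1, 2 and 3. Neither IgG nor input libraries were analysed here, so no test compares HuR with a control. The control behind each fold is not given in the sources used here, and read depth is unknown. The labels do not say whether the immunoprecipitations came from separate cultures. Lists 1, 2 and 3 held 4722, 5384 and 7966 sites in 3423, 3625 and 3942 genes. Of 11 colon epithelium and carcinoma marker genes 2 had a site, Krt18 and Krt20. Of the mesenchymal markers 4 of 6 had a site, and of the immune markers 0 of 6 did. Hbb-bs and Alb, out of 3 erythroid and liver markers, also had a site. No marker had a site in all 3 lists, and a site is not an expression level.

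A fold is the ratio of signal to control that the peak caller gave 1 site in 1 library. A score is its p-value as log10, multiplied by -10. Both are the authors' values and carry no replicate error. Their levels differ between the lists, so they are ranked against other sites of the same list. Folds of different lists that stand side by side are not adjusted for this. Where a percentage is given beside a fold, it is the share of all sites of that list with a fold at least as high. Coordinates are on mm39. No genome of that build was used here, so it is not known whether a site lay in a coding or an untranslated part of its mRNA, and no site sequence is printed.

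List 1 held sites of 91 members, list 2 of 85 and list 3 of 100. Of all genes with a site, 54.5%, 57.8% and 62.8% were in these lists. A site in all 3 lists was found for 38 members (25.3%), against 19.9% of all genes with a site. A site in at least 2 lists was found for 88 members (58.7%), against 55.2%. Another 62 members had their sites in 1 list alone, of which 23 were in list 1, 17 in the second and 22 in the third. The shares in all 3 and in at least 2 lists lay a few percentage points above those of all genes, and these differences were not tested. For comparison, 31.6% of 38 Usp deubiquitinase genes and 8.33% of 144 Zfp zinc finger genes with a site had one in all 3 lists.

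The family was also set against the genome. Of 340 protein-coding RefSeq symbols that meet the same name rule, 150 (44.1%) had a site, against 28.4% of all protein-coding symbols. The symbols without a site include genes that these cells may not express, and gene length was not taken into account. Coverage differed between the classes. All 6 Ubr and both Ube4 symbols had a site, as did 15 of 17 symbols of the HECT class and 6 of 8 cullin symbols. At the other end stood the Trim genes with 15 of 64 and the Klhl genes with 10 of 37.

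**Figure D1:**
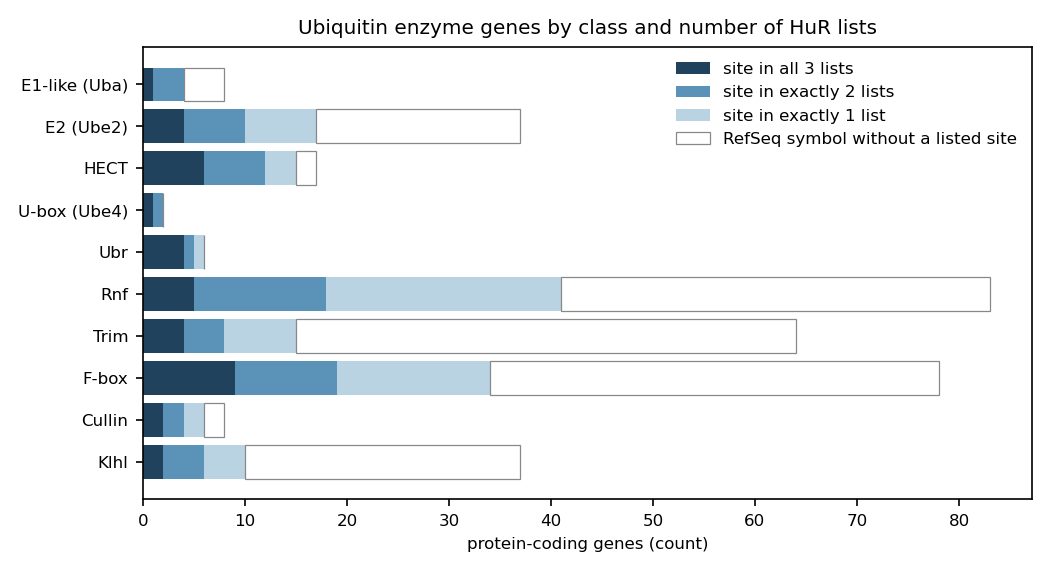
Horizontal bars give the number of protein-coding genes in each class of ubiquitin enzyme, split from left to right into genes with a site in all 3 HuR lists, in exactly 2, in exactly 1 and in none. The Rnf class is the longest with 83 symbols, of which 5 had a site in all 3 lists, while 4 of the 6 Ubr genes did.

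Of the activating enzymes, 4 of 8 symbols had a site, among them Uba6, Uba2 and Uba3. Uba6, which charges ubiquitin and the ubiquitin-like protein FAT10, was the member of this class in all 3 lists. Its best folds were 8.72 in list 1 (28.3% of sites), 9.61 in list 2 (11% of sites) and 12.01 in list 3 (12.4% of sites). It held 1, 2 and 5 sites. Both sites of list 2 had the same start and end as a site of list 3. One of them, chr5:86289407-86289485, had a fold of 9.61 in either list, and 9.61 was the commonest fold of list 3, at 151 sites. The other, chr5:86295664-86295740, had a fold of 6.41 in list 2 and 12.01 in list 3. The site of list 1 lay outside these regions. Uba2 and Uba3 act on ubiquitin-like proteins. Uba2, a subunit of the SUMO-activating enzyme, had best folds of 6.15 in list 2 and 8.37 in list 3 and no site in list 1. Uba3, the catalytic subunit of the NEDD8-activating enzyme, had 4.64 in list 2 and 4.44 in list 3, the second of which 98.1% of the sites of list 3 equalled or exceeded. Uba1, the main ubiquitin-activating enzyme, had no listed site.

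Of the genes named Ube2, nearly all of them conjugating enzymes or their variants, 17 of 37 symbols had a site, and 4 had one in all 3 lists, among them Ube2h, Ube2q2 and Ube2c. Ube2h, an E2 known to work with the CTLH ligase complex, had a region with the same bounds in every list, chr6:30304051-30304538. Its folds there were 16.5 in list 1, 7.26 in list 2 and 9.43 in list 3. List 1 stood out, since 1.86% of its sites reached such a fold, against 33.8% in list 2 and 35.4% in list 3. The scores were 365, 53.3 and 66.5, the last 2 of which were below the score of 70 used as a stricter minimum. Ube2q2 held a region of all 3 lists at chr9:55113244-55114813, with folds of 7.26, 3.9 and 6.82. Sites of 1452 and 1570 bases in lists 2 and 3 began at the same base, and the site of list 1 was 473 bases long and lay within the span.

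Ube2c, the E2 of the anaphase-promoting complex, was found at different positions by different pairs of lists. At chr2:164611818-164612000 lists 1 and 2 had folds of 3.82 and 4.65. At chr2:164614424-164614827 lists 2 and 3 had folds of 5.98 and 8.13 with scores of 297 and 417. Each of these pairs had equal bounds, and no position of Ube2c was found in all lists.

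Some conjugating enzymes reached high folds in fewer lists. Ube2g1, an E2 of protein degradation at the endoplasmic reticulum, had 12.4 in list 1 and 16.7 in list 3. These sites lay 75888 bases apart along the chromosome. Ube2v2, which lacks the catalytic cysteine and pairs with Ube2n to build chains, had a single site, in list 2. Its fold of 16.02 was reached by 0.539% of the sites of that list.

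In the HECT class 15 genes had a site and 6 had one in all 3 lists: Itch, Herc1, Ube3a, Ube3b, Ube3c and Smurf2. Itch, a ligase of the NEDD4 family known for its part in immune tolerance, had the highest lowest fold of all members. Its best folds were 12.4, 10.8 and 10.5 in lists 1, 2 and 3, reached by 7.16%, 6.3% and 22.8% of the sites. It also held a region with equal bounds in every list, chr2:155059911-155060007. The folds at that region were 4.98, 10.8 and 6.5, so lists 1 and 3 had their best Itch sites at other positions. Herc1, which encodes a very large ligase, had the most sites of any member, 16 in all, with 4, 3 and 9 in lists 1, 2 and 3. Its best folds were 7.81, 10.8 and 11.2. In Herc1 4 regions were shared by a pair of lists, 3 by lists 1 and 3 and 1 by lists 2 and 3, and no region was common to all.

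The E4 and N-degron ligases had sites mostly from list 3. Ube4a, a U-box ligase that lengthens ubiquitin chains, had best folds of 12.7, 4.97 and 9.9 with 5 sites that did not overlap between lists. Ube4b, of the same kind, had 4.88 in list 2 and 11.1 in list 3. The Ubr genes, several of which encode recognins of destabilising protein ends, held 4, 11 and 28 sites in lists 1, 2 and 3. Ubr1, Ubr2, Ubr3 and Ubr7 had a site in every list.

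Ubr1 had best folds of 21.6, 6.85 and 15.99 in lists 1, 2 and 3. The site of list 1, chr2:120705847-120705980, was the highest in fold of the members in that list and was reached by 0.635% of its sites, but it overlapped no site of the others. Lists 2 and 3 shared regions of equal bounds at chr2:120764785-120764913, with folds of 6.85 and 15.99, and at chr2:120780521-120780651, with folds of 6.41 and 7.21. Ubr2 had best folds of 5.6, 7.83 and 21.7. The last of these, at chr17:47283790-47283973, was the highest among the members of list 3, where 0.251% of sites reached it, and again lay outside the sites of the other lists. Lists 1 and 3 shared a Ubr2 region of equal bounds at chr17:47256944-47257092, with folds of 5.6 and 6.26. Ubr3 had best folds of 4.97, 6.41 and 12.2. Of its 12 sites 10 came from list 3, which makes its place among genes of all lists rest on 1 site each in lists 1 and 2.

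**Figure D2:**
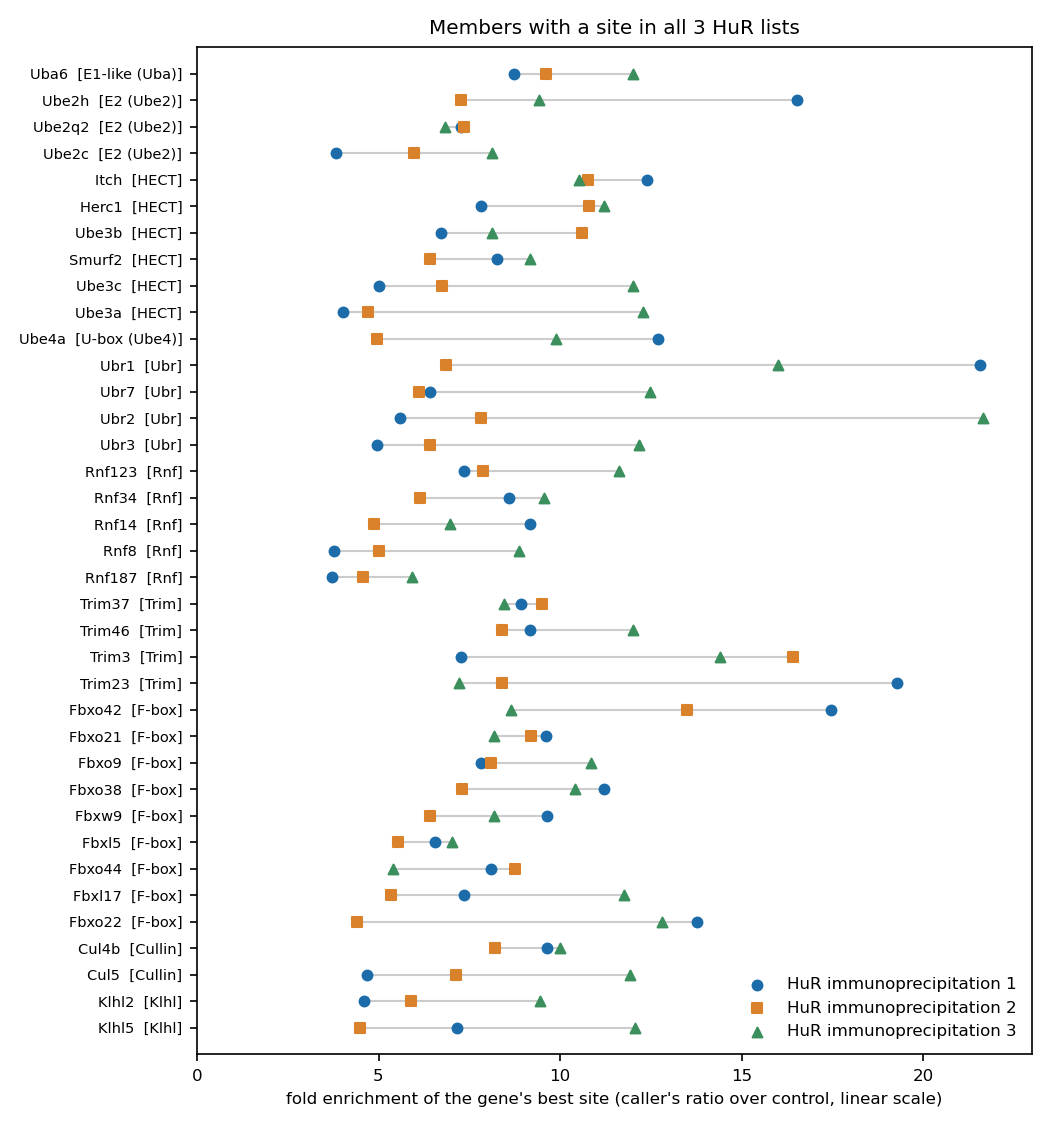
Each row is a member with a site in all 3 lists, grouped by class, and the points give the fold enrichment of its best site in HuR immunoprecipitations 1 (circle), 2 (square) and 3 (triangle), on a linear axis. Itch, Trim37 and Ube2q2 have points close together, while Ubr1 and Ubr2 reach 21.6 and 21.7 in a single list.

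The Rnf genes, most of them RING ligases, formed the largest class with 41 members, and 5 of them (12.2%) had a site in all 3 lists: Rnf8, Rnf14, Rnf34, Rnf123 and Rnf187. Another 23 had their sites in 1 list. Rnf8, a ligase recruited to DNA double-strand breaks, and Rnf187 each had a region of equal bounds in every list. At Rnf8 (chr17:29840483-29840611) the folds were 3.78, 5.02 and 8.87 and the scores 55.1, 53.3 and 92.4. At Rnf187 (chr11:58827966-58828058) the folds were 3.71, 4.57 and 5.91 and the scores 114, 182 and 96.8. In list 1 the fold of Rnf187 was equalled or exceeded at 96.9% of sites and that of Rnf8 at 96.4%.

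Rnf123, a subunit of the KPC ligase, had best folds of 7.35, 7.89 and 11.6, and sites of lists 1 and 3 that began at the same base. Rnf34 had best folds of 8.6, 6.15 and 9.56, with overlapping sites of 760 and 832 bases in lists 2 and 3. Rnf111, known as Arkadia and as a ligase of TGF-beta signalling, had sites in lists 2 and 3 only. Its site of 1109 bases in list 3 had a fold of 18.0, reached by 0.967% of sites, and the best site of list 2 had 7.61.

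Among the Trim genes, most of which carry a RING, B-box and coiled-coil motif, 15 had a site. Of these, Trim37, Trim46, Trim3 and Trim23 had one in all lists. Trim37, linked to mulibrey nanism in humans, had best folds of 8.92, 9.49 and 8.46, the closest together of these 4 genes. Within the lists they ranked less alike, being reached by 24.9%, 11.3% and 47.9% of the sites. Trim37 held 2, 6 and 2 sites, and its best sites of the 3 lists did not overlap. Trim3 had a site of equal bounds in lists 2 and 3 (chr7:105274613-105274778) with folds of 16.4 and 14.4. That of list 2 was the highest among the members in list 2, where 0.371% of sites reached it. List 1 placed its Trim3 site elsewhere, with a fold of 7.26. Trim23, which also carries an ARF-type GTPase domain, had overlapping sites in lists 1 and 2 with folds of 19.3 and 8.41, and a site at another place in list 3 with 7.21. Trim46 had best folds of 9.18, 8.41 and 12.01 at 3 positions without overlap. Trim33, a co-regulator of SMAD signalling, had 1 site in list 2 and 4 in list 3, of which 1 pair had equal bounds.

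F-box genes gave 34 members, 9 of them in all lists, and held 102 of the 451 sites. Fbxo38 and Fbxo44 each had a region of all 3 lists. At Fbxo38, an F-box protein reported to act on PD-1 in T cells, the bounds were equal in every list (chr18:62638546-62638659) and the folds were 11.2, 7.31 and 9.48. Fbxo44 shared 136 bases (chr4:148240603-148240738) among sites of 136, 450 and 341 bases that ended at the same base. Its folds there were 6.0, 8.75 and 5.39.

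No region was shared between lists in Fbxo42 or Fbxo21. Fbxo42, which has been linked to p53, had best folds of 17.5, 13.5 and 8.65, the first of which was reached by 1.52% of the sites in list 1 and the second by 1.43% in list 2. Along the chromosome, the list 1 site lay 47001 bases from the nearest site of list 3 and 49303 bases from that of list 2. Fbxo21 had best folds of 9.61, 9.2 and 8.18, reached by 19.6%, 13.5% and 52.5% of the sites. Fbxl17, known for removing faulty BTB dimers, had 12 sites (4, 1 and 7), and 4 regions were shared by a pair of lists with equal bounds. Its best folds of 7.35, 5.35 and 11.8 were reached by 48.6%, 69.5% and 13.2% of the sites. Fbxo9 had 9 sites and 4 shared regions, 2 of lists 1 and 2 and 2 of lists 2 and 3, with best folds of 7.81, 8.09 and 10.9. No region of Fbxl17 or Fbxo9 was common to all lists.

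Of the cullins 4, 2 and 6 had a site in lists 1, 2 and 3. Cul1, the scaffold of SCF ligases, had 8 sites in list 3 and none in the others. Their folds ran between 6.06 and 15.2 and their scores between 60.6 and 418. Cul4b, a scaffold of the ligases that use DDB1, had best folds of 9.63, 8.2 and 9.99. Its sites in lists 1 and 2 ended at the same base (chrX:37635569-37635761), and the 6 sites of list 3 lay elsewhere. Cul2 and Cul3 were in lists 1 and 3, Cul4a in list 3 alone and Cul5 in all lists, with 4.67, 7.14 and 11.9.

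Klhl genes, adaptors of Cul3, had 10 members, and lists 1, 2 and 3 held 8, 3 and 7 of them. Klhl2 and Klhl5 were in all lists. Klhl5 had sites of equal bounds in lists 1 and 3 at a pair of positions, with folds of 4.68 and 7.75 at the first and 4.64 and 12.1 at the second. Klhl2 had best folds of 4.61, 5.89 and 9.45 and long overlapping sites of 884 and 954 bases in lists 2 and 3.

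**Figure D3:**
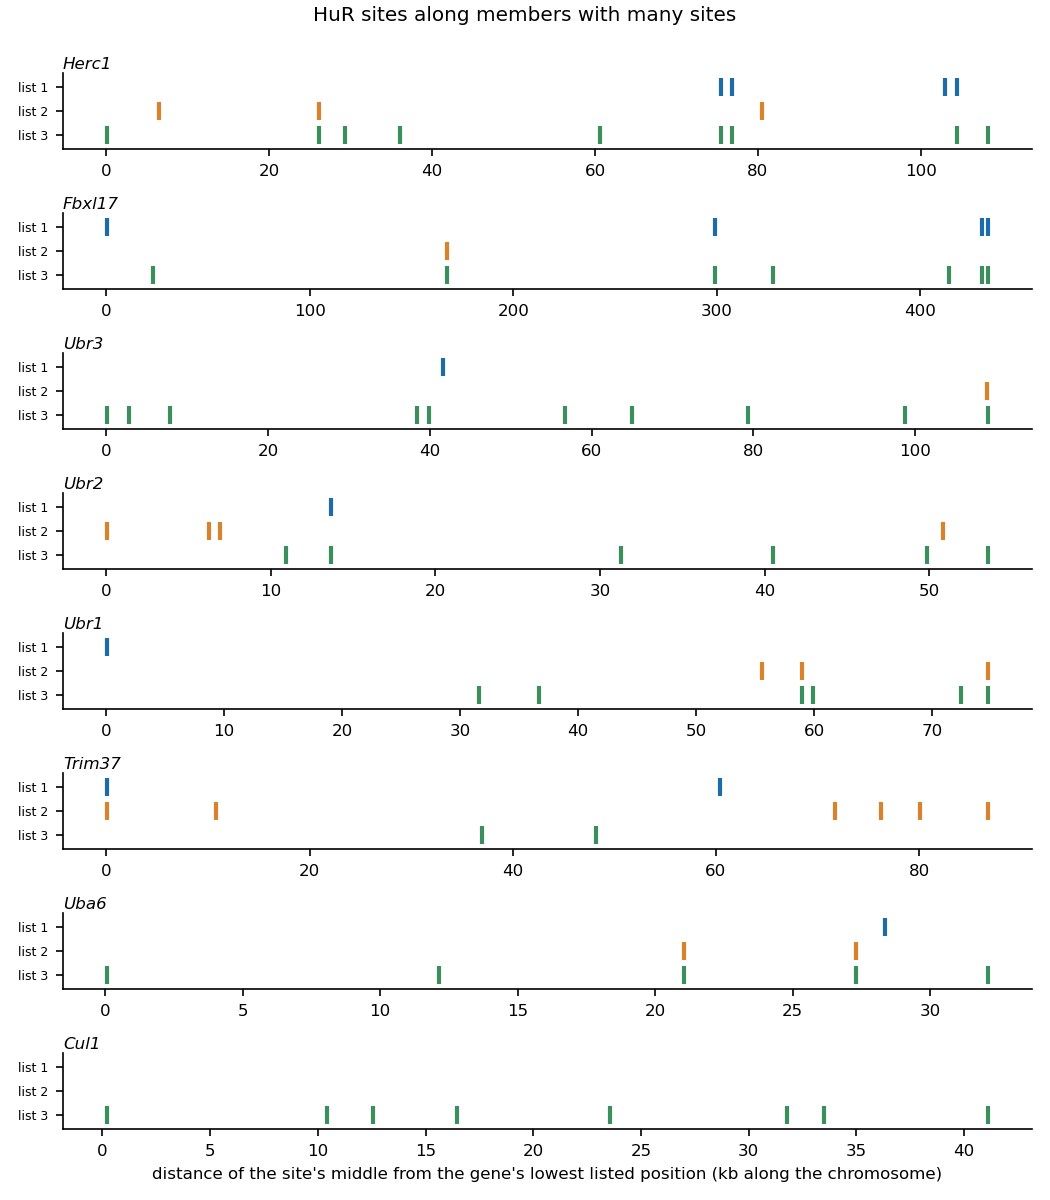
Ticks mark the middle of each site along 8 members with many sites, in kilobases from the lowest listed position of the gene, with 1 row for each HuR list. Herc1 and Fbxl17 have ticks that line up between pairs of lists, Trim37 has 6 sites in list 2, and all 8 sites of Cul1 are in list 3.

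The sites were then compared by position, to ask whether the immunoprecipitations found the same stretch of an mRNA. Overlapping sites joined into 378 regions in the members, of which 7 held a site of all 3 lists, 59 held sites of exactly 2 lists and 312 held a site of 1 list. The 7 regions lay in 7 members: Ube2h, Ube2q2, Itch, Rnf8, Rnf187, Fbxo38 and Fbxo44. They make up 7 of the 38 members in all lists, and the share over all genes in all lists was 15.5%. Another 22 of the 38 had a region shared by a pair of lists, and 9 had no overlap at all. These 2 counts were not taken over all genes. A site of another list overlapped 30.6%, 41% and 25.4% of the members' sites in lists 1, 2 and 3. Over all sites the shares were close to these, at 29.8%, 35.4% and 23.4%. Equal bounds were found in 5 of the 7 regions and in 40 of the 59. For overlapping sites of lists 1 and 2, lists 1 and 3 and lists 2 and 3, the bounds were equal in 63.2%, 76% and 66.7% of cases at the members, against 67.8%, 74.7% and 81% at all genes.

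The pairs of lists did not contribute alike to the shared regions. Lists 2 and 3 gave 29 of the 59, lists 1 and 3 gave 18, and lists 1 and 2 gave 12. Of the members found in both lists of a pair, 55.2% had an overlapping site for lists 2 and 3, 34.5% for lists 1 and 3 and 37.5% for lists 1 and 2. The values over all genes were 49%, 36.7% and 42.1%. For the 36 members in at least 2 lists without overlap, the nearest sites of different lists were a median of 7163.5 bases apart. The lowest value was 708 and the highest 75888. These distances are counted along the chromosome and not along the mRNA. Neither they nor the count of 36 were taken over all genes.

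**Figure D4:**
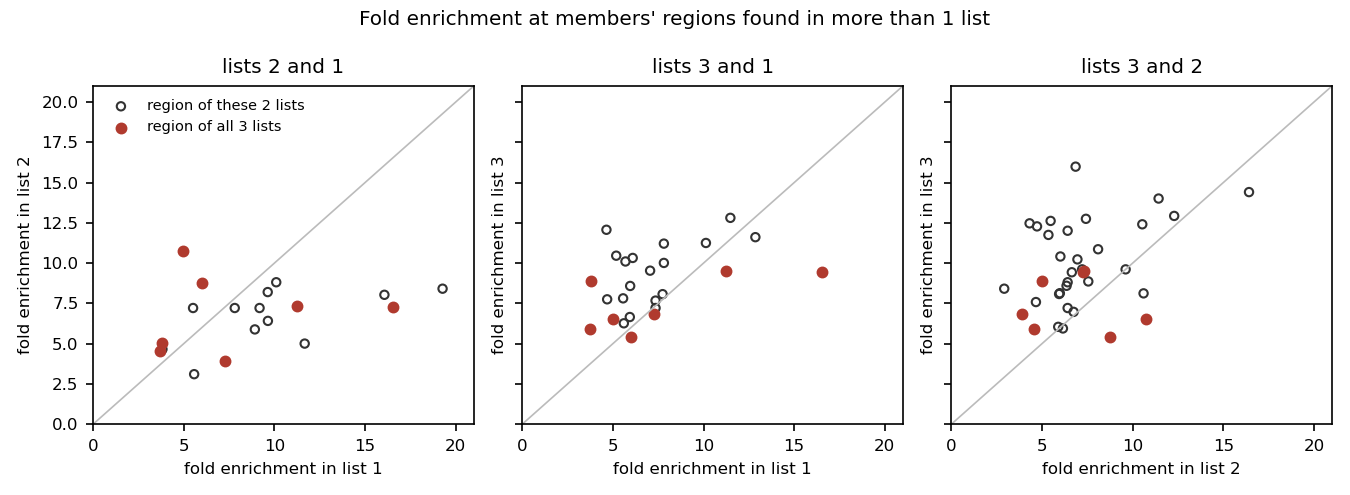
Each point is a region of a member found in more than 1 list, with its fold enrichment in either list of a pair on linear axes and a line of equal fold. Open points are regions of that pair alone and filled points the 7 regions of all 3 lists; for lists 3 and 2, 25 of the 29 open points lie above the line.

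At these regions the fold in list 3 was the higher value in 16 of 18 regions shared with list 1 alone and in 25 of 29 shared with list 2 alone. The lists differ in level as a whole, so this order was read against all genes: among overlapping sites of lists 2 and 3 the value of list 3 was higher in 83.3% of cases at the members and 87% at all genes. For lists 1 and 3 the shares were 76% and 77%.

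Within each list the members' folds were close to those of all sites. The members had median folds of 7.35, 6.41 and 8.61 in lists 1, 2 and 3, against 7.21, 6.41 and 8.38 over all sites. The highest were 21.6, 16.4 and 21.7, against 46.5, 253 and 64.9. The median score at the members was 85.1, 77.5 and 81.8, against 87.3, 79.4 and 83.8. Site lengths had a median of 179, 154 and 156 bases, against 176, 161 and 152. The caller's FDR at the members' sites ran between 9.31% and 21.1%, so none of their sites had an FDR of 5% or less. Its median was 15.7%, 13.0% and 9.69% at the members, against 15.5%, 13.0% and 9.73% over all sites. The lowest FDR over all sites was 14.06% in list 1 and 12.32% in list 2, so no gene reached 5% there. In list 3 the lowest was 0.0%. For the 38 members in all lists the lowest of the 3 best folds had a median of 6.28, against 6.27 for the 1248 genes in all lists.

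**Figure D5:**
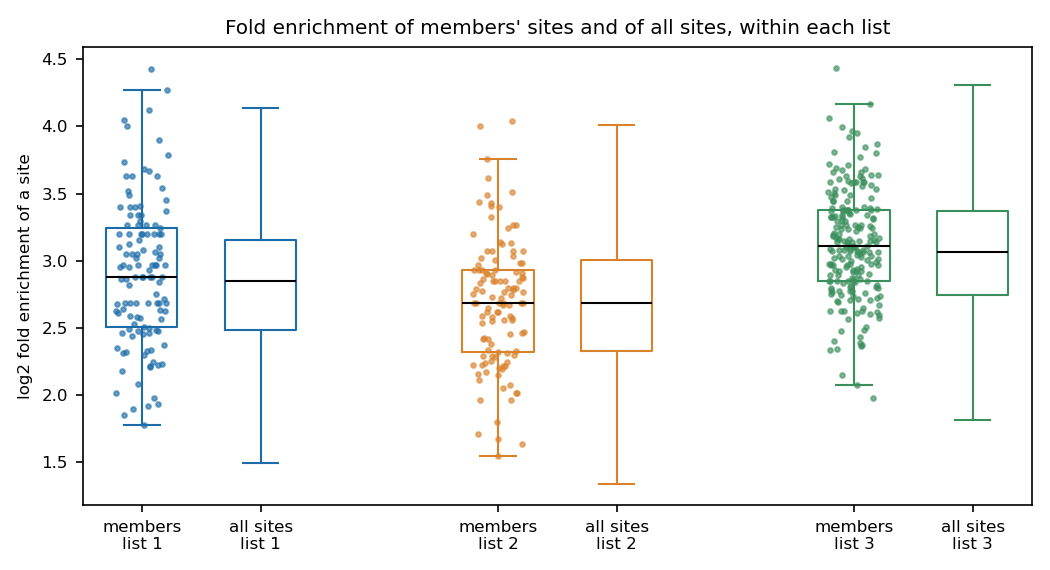
The log2 fold enrichment of the members' sites (points with boxes) stands beside that of all sites (boxes) in each HuR list; boxes span the quartiles with the median as a line, and whiskers reach the furthest site within 1.5 times the box. The boxes of the members and of all sites lie at similar heights within each list, with medians of 8.61 and 8.38 on the linear scale in list 3.

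The number of sites per gene was set against all genes in the same way. A member held 1 site at the median in every list, as did all genes. More than 1 site was held by 24.2% of the members in list 1, 21.2% in list 2 and 46% in list 3, against 28.2%, 32.7% and 46.8% of all genes. Over the 3 lists 53 members had 1 site and 7 had at least 10. At least 5 sites in a single list were held by 11 members in list 3, by Trim37 in list 2 and by none in list 1. The counts at 5 and 10 sites have no share over all genes beside them. The most sites of 1 gene in lists 1, 2 and 3 were 4, 6 and 10 at the members. Over all genes they were 7, 8 and 15. Counts of sites are not adjusted for the length of the gene.

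The annotation in the files was used to check the family name. Of the members 112 of 149 with a molecular function term (75.2%) carried one that names ubiquitin, against 5.42% of the other genes. Binding of zinc ions, which the RING fold needs, was annotated for 42.3% of members, against 6.46% of the other genes. Of the 52 members with a KEGG pathway, 46 were assigned to ubiquitin mediated proteolysis. These 46 included 15 (32.6%) with a site in all lists, against 5 (13.5%) of the 37 other genes of that pathway with a site. The difference was not tested.

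Other genes, counted here with the ubiquitin system, were described from a list of 151 names, of which 143 were found. Unlike the members, these names were not checked against the annotation. Most names not found were second names of genes that were found. A site was listed for 101 of the 143 genes, and 27 of these (26.7%) had one in all 3 lists, near the 25.3% of the members. By the lowest of the 3 best folds, the highest among genes in all lists were Zzef1, with best folds of 10.6, 11.6 and 12.6, and Cdc16, a subunit of the anaphase-promoting complex, with 25.6, 16.1 and 9.64. Dcaf12, a substrate receptor of Cul4 ligases, had 10.4, 9.55 and 11.2. Mycbp2, a very large ligase, had 21 sites over the 3 lists and best folds of 12.9, 8.41 and 12.4. The ligase genes Znrf2 and Shprh had lowest best folds of 8.8 and 8.01. Skp1, which joins F-box proteins to Cul1, had 3.15, 6.76 and 7.05. No site was listed for the ubiquitin genes Ubb and Rps27a, or for Nedd8, Keap1 and Ddb1.

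Of these counts at the members, the shared regions depended most on the caller's threshold. No count of such regions over all genes was set beside them at a stricter threshold. Whether the loss was particular to the members was not tested. With a score of at least 70 required of every site, 21 members had a site in all 3 lists (17.5% of the 120 members with such a site, against 11.5% of all genes) and 1 region, that of Rnf187, was left in all lists.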

How the data were processed

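RNA from 3 HuR immunoprecipitations of CT26.WT cells was analysed through the authors' deposited site lists, 1 per immunoprecipitation. Per the submitters' processing notes, the tools were STAR, HISAT2 2.0.4, FastQC and cutadapt 1.9.3, in no stated order, on mm39. The site names carry the prefix of the MACS caller, whose settings and control library no source used here gives. Per the file headers, the fold enrichment is the caller's ratio and the score is minus 10 times the log10 of its p-value. The deposited FDR is read as percent from its range. The joined list and the list of gene symbols were not used. Sites that shared at least 1 base were joined into regions with Python 3.11.15 and pandas 2.3.3, and the joining was tested on simulated sites. Starts are counted from 1.

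No p-value was computed, because the lists hold calls and no value per library for IgG or input. Shares over all genes with a site stand beside the members' shares. RefSeq symbols of GRCm38 served for names and for the totals of protein-coding symbols, by class and in all. All 150 members matched. Members and lists were chosen with earlier results of these data known. Named genes were those with a region of all 3 lists, the 12 with the highest lowest best fold, the 2 with most sites in each class, those with the 3 highest folds of each list, every Uba gene, and of the other ubiquitin genes the 6 with the highest lowest best fold and 6 without a site. A few genes that the rule names are not reported here. Members named beyond these belong to counts of 9 or fewer or were chosen after their values were seen.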

Additional observations from a re-analysis of the deposited data

How the results depend on the processing

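No paired analysis was possible because the site calls used here are of HuR alone, with no IgG values to set beside them. A score of at least 70 left 21 members in all 3 lists, in place of 38, and 1 region in 1 member, in place of 7; of the other ubiquitin genes it left 12 in place of 27. A fold of at least 5 left 3 regions in 3 members. Lists of equal length left 4 regions in 4 members, which like the other falls follows from fewer sites being compared. These region counts are of the members alone, with no count over all genes beside them. Leaving out each HuR immunoprecipitation in turn gave 48 to 58 members in both other lists (37.5 to 45.7%), 19 to 36 regions in 18 to 32 members and 38 to 46 other ubiquitin genes, since 2 lists are easier to satisfy than 3. The members numbered 58 without immunoprecipitation 1 or 2 and 48 without 3. For all genes the shares were 34.7 to 42.1%. Median folds, median sites per member and stricter overlap stayed within the limits set for no change. Of 36 named members, 17 were in fewer lists with the score minimum, 11 with the fold minimum and 8 with equal lengths, and none in more; these checks per gene were chosen after seeing the data. The planned description of site sequence was not run. Since depth is unknown, a missing site may be a missed one.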

Other observations

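The members described here were singled out after their values were seen. Ube2m, the E2 of NEDD8, had the top score of the members in list 1, 542, at a fold of 5.42. Ube2l3, an E2 that serves HECT and RBR ligases, had the top score in list 2, 857, at a fold of 5.5. Neither gene had a site in another list. In list 3 the top score was 896 at Ube3a, the ligase lost in Angelman syndrome, at a site of 6035 bases with a fold of 12.3. List 2 had a site of 5960 bases that began at the same base (chr7:58954558-58960517), with a fold of 4.72 and a score of 227. These were the longest sites of any member. In list 1 the Ube3a site lay elsewhere, with a fold of 4.03. The top-scoring sites of Ube2l3 and Ube3a also had the highest FDR of the members in their lists. It was 17.28% for Ube2l3 in list 2 and 21.14% for Ube3a in list 3.

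Rnf168, which extends the histone ubiquitin marks begun by Rnf8, was found in list 1 alone, at 1 site of fold 10.9. Its relative Rnf169 had 9.18 in list 1 and 10.0 in list 3. Rnf20 and Rnf40, partners in the ubiquitination of histone H2B, each had a single site, of fold 8.37 and 9.8, both from list 3. Rnf2, the catalytic subunit of Polycomb complex PRC1, had best folds of 7.55 in list 2 and 9.88 in list 3, and its site of list 2 overlapped another site of list 3, of fold 8.86, that ended at the same base.

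Folds recur exactly within a list. In list 1, 34.7% of the members' sites and 31.4% of all sites had a fold that occurred at least 50 times in that list. The shares were 20.5% and 24.6% in list 2 and 16.4% and 17.6% in list 3.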
